A study of Homo sapiens with 16 samples.

Results

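In SUM159 cells treated with palbociclib, adding indisulam changed the level of 7764 of 16080 genes tested (48.3%). The cells were compared as the 4 libraries, of 16 in the series, that the labels mark SUM159 P+I (R1 and R2) and SUM159 PD (R1 and R2). SUM159 is an established human line from a triple-negative breast cancer, and the other line of the series is A549, from a lung cancer. The palbociclib group received 2 µM palbociclib for 16 h, and the combination group received 2 µM palbociclib together with 3 µM indisulam for the same 16 h. Every library of the comparison therefore carries palbociclib, and only indisulam differs. The other SUM159 groups, also with 2 libraries each, were untreated or received 3 µM indisulam alone for 16 h. The series describes its duplicates as technical and uses 1 line per tumour type, so p-values measure only the spread between these libraries.

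Palbociclib inhibits CDK4 and CDK6, the kinases that phosphorylate the retinoblastoma protein in G1 and so release E2F factors to switch on the genes of DNA replication. Genes of G2 and mitosis are switched on later in the cycle, by complexes that bind a short promoter element called the cell cycle homology region (CHR). Indisulam joins RBM39, an RNA-binding protein used in splicing, to DCAF15, the receptor of a CUL4 ubiquitin ligase, and RBM39 protein is then degraded. Poly(A) RNA was sequenced, so the data give RNA levels per gene and neither protein nor isoforms.

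Between 25095187 and 33310006 reads were assigned to genes in the 4 libraries, which puts a level of 3 counts between 0.0884 and 0.114 CPM (counts relative to library size, after scaling by edgeR's TMM method). This floor covers counting error only. Reads that fell in no annotated feature made up 4.96% and 5.45% with palbociclib and 6.78% and 5.94% with the combination. The groups did not overlap, but with 2 libraries against 2 the smallest two-sided exact permutation p is 0.333. The defining markers of a mesenchymal-like breast line (VIM, AXL, CAV1, FN1 and 4 others) were all detected. Their summed level was 14660 and 14810 CPM with palbociclib and 12600 and 12550 CPM with the combination. Of 8 markers of luminal breast 6 were tested, at 121.1 and 116.3 CPM in sum and then at 98.8 and 101.3 CPM. XBP1 made up most of this, with 2994 and 3638 counts with palbociclib and 2831 and 2391 with the combination. SFTPC and NKX2-1 of A549, CD3E and LYZ of leukocytes, and CDH5 of endothelium had between 0 and 4 counts in each library. Not all such markers were this low. Among the A549 markers, AKR1C2 had 2152 and 2464 counts with palbociclib and 2630 and 2140 with the combination. AKR1B10 had 124 and 112 counts and then 90 and 80. PTPRC of leukocytes had 120 and 154 counts and then 110 and 100. PECAM1 was an exception among the endothelial genes and rose from 22.7 and 23.7 CPM to 36.99 and 38.9 CPM. Of 6 leukocyte genes CD14 was the 1 that passed, and it rose from 1.24 and 1.53 CPM to 2.31 and 2.89 CPM. The part of other cells in the results was not tested.

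Of the 7764 genes, 3766 were higher with the combination (23.4% of those tested) and 3998 were lower (24.9%), at an adjusted p-value under 0.05. Most changes were small. The median log2 change over all genes tested was 0.0088, with a 5th percentile of -0.71 and a 95th percentile of 0.83. A change of at least 1 on the log2 scale was seen for 825 genes (5.13%), 470 higher (2.92%) and 355 lower (2.21%). With 2 libraries a group, the groups did not overlap for 72.5% of all genes, 36.8% with the combination higher and 35.7% with it lower, so that a lack of overlap alone says little about a gene. The lists of genes described below came from general knowledge or, for senescence, from the study's supplement. They were chosen with earlier results of these data known. Each list is given by its counts and its median, to be read against these background values.

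RBM39, whose protein is the target of the drug, was 2.08 times as high at the RNA level. The gene (chr20:35701347-35742312 on GRCh38, 17 exons in its Ensembl canonical transcript) was at 193.4 and 190.8 CPM with palbociclib and at 389 and 408.3 CPM with the combination. Both combination libraries lay far above both palbociclib libraries, with a log2 change of 1.05 ± 0.036 (SE) and an adjusted p of 2.5e-12. RBM23, its paralog, was at 49.0 and 50.4 CPM and rose to 66.5 and 69.6 CPM, a log2 change of 0.45 ± 0.045. DCAF15 was at 20.5 and 23.1 CPM and then at 22.7 and 23.2 CPM, so that the groups overlapped (log2 change 0.06, 95% interval -0.079 to 0.21, adjusted p = 0.454). Of the 8 genes of RBM39, RBM23 and the ligase, 4 were higher and 2 lower. CUL4B, a scaffold of such ligases, rose from 251.5 and 236.9 CPM to 286.7 and 295.7 CPM.

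**Figure D1:**
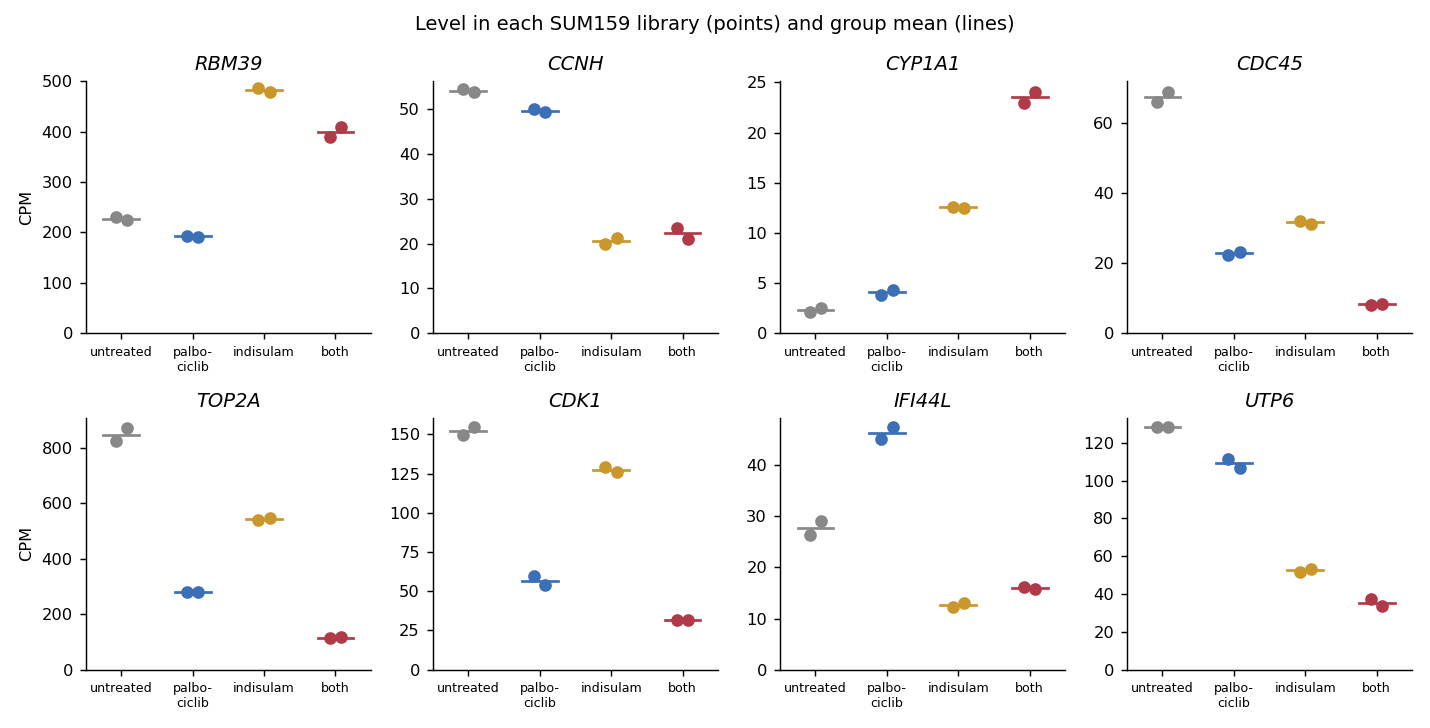
Levels in CPM (vertical axis, from 0) of 8 genes in each of the 8 SUM159 libraries. Points are libraries and lines are means of 2. CDC45, TOP2A and CDK1 are lowest with both drugs, CYP1A1 is highest with both, and RBM39 and CCNH follow indisulam whether or not palbociclib is present.

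The CDK-activating kinase, which phosphorylates cell cycle CDKs and belongs to the transcription factor TFIIH, changed in its cyclin and not detectably in its kinase. CCNH, the cyclin of the complex (chr5:87318416-87412930), was at 50.03 and 49.3 CPM with palbociclib and at 23.5 and 21.0 CPM with the combination. The level was 0.450 times that with palbociclib alone, with a log2 change of -1.15 ± 0.059 and an adjusted p of 1.8e-10. CDK7, the kinase, was at 70.6 and 66.7 CPM and then at 69.3 and 68.8 CPM, within the palbociclib range (log2 change 0.01, 95% interval -0.085 to 0.11). MNAT1, the assembly factor, was at 25.2 and 23.8 CPM and then at 22.3 and 22.0 CPM, which did not pass (log2 change -0.15, adjusted p = 0.0578). Of the 9 tested genes of the kinase and TFIIH, 4 were lower and 2 higher, the latter falling to 1 without palbociclib replicate 1 and to 0 without any other of the 4 libraries. GTF2H1, a core TFIIH subunit, fell from 90.1 and 83.3 CPM to 52.96 and 52.8 CPM. CCNH lies opposite RASA1 and MNAT1 shares its strand with another annotated gene, so their counts are less certain.

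Genes of cell division were lower with the combination than with palbociclib alone. Of 27 cyclins, CDKs and their inhibitors, 18 were lower and 4 higher, with a median log2 change of -0.32. CCNE2, a cyclin E that activates CDK2 at the start of S phase, went from 8.78 and 8.16 CPM to 3.81 and 4.18 CPM. This was a log2 change of -1.09 ± 0.10, with no overlap between groups, as for 35.7% of all genes tested in that direction. CCNE1, its paralog, was at 19.7 and 20.6 CPM and fell to 17.3 and 16.3 CPM, a log2 change of -0.26 ± 0.067. CDK2 was at 51.1 and 47.3 CPM and fell to 38.8 and 39.0 CPM, a log2 change of -0.34 ± 0.055. CDK1, the mitotic kinase, fell from 59.7 and 53.7 CPM to 31.7 and 32.0 CPM. CCNA2, its cyclin of S and G2 phase, fell from 43.2 and 41.1 CPM to 25.8 and 24.6 CPM. CCND1, the partner of CDK4 and CDK6, was at 615.9 and 614.2 CPM and then at 578.2 and 594.0 CPM, and did not pass (adjusted p = 0.1). The higher members were RBL2, CCNB2, CDC25B and WEE1, none with a log2 change above 0.20. The count of higher members fell to 1 or 2 when any 1 of the 4 libraries was left out.

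Of 56 genes of DNA replication 40 were lower and 3 higher, and their median log2 change was -0.27. CDC45, part of the replicative helicase, had 22.2 and 23.3 CPM with palbociclib and 8.14 and 8.22 CPM with the combination. Its log2 change was -1.48 ± 0.073 (adjusted p = 9.8e-11). POLE2, a subunit of DNA polymerase epsilon, dropped from 12.4 and 11.3 CPM to 4.59 and 4.83 CPM. RRM2, the small subunit of ribonucleotide reductase, dropped from 49.9 and 47.9 CPM to 19.96 and 23.3 CPM. For each of these genes both combination libraries lay below both palbociclib libraries, as for 35.7% of all genes tested. Enzymes of nucleotide synthesis were lower in 6 of 6 cases, loading and helicase factors in 16 of 23, and polymerases and fork proteins in 18 of 27. The 3 higher members were ORC1, RFC1 and POLD1, and 1 was higher without combination replicate 2.

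Of the 38 lists, mitosis had the largest share of members lower, 50 of 59, with 1 higher (SPC24, which did not pass with DESeq2 or without palbociclib replicate 2 or combination replicate 2) and a median log2 change of -0.53. The summed level of its 59 genes was 9326 and 9482 CPM in untreated cells, 3548 and 3510 CPM with palbociclib and 2422 and 2442 CPM with the combination. TOP2A, the topoisomerase that untangles chromosomes before they part, was at 280.6 and 281.0 CPM and fell to 114.4 and 117.0 CPM, a log2 change of -1.28 ± 0.038 (adjusted p = 8.8e-13). KIF20B, a kinesin of cytokinesis, fell from 60.0 and 59.7 CPM to 25.9 and 25.7 CPM. CENPI, a protein of the inner kinetochore (chrX:101098188-101166126), fell from 34.4 and 33.5 CPM to 11.04 and 11.7 CPM. Its log2 change of -1.58 ± 0.065 was among the 8 largest decreases of protein-coding genes. MKI67, a widely used marker of proliferation, was at 105.9 and 124.5 CPM and fell to 90.8 and 80.1 CPM, a log2 change of -0.43 ± 0.070. LMNB1, which encodes lamin B1 of the nuclear envelope and is known to fall in senescent cells, went from 56.4 and 57.7 CPM to 42.0 and 40.6 CPM, a log2 change of -0.47 ± 0.046. In bulk RNA, fewer cells in a phase of the cycle and less RNA per cell cannot be told apart. Kinesins were lower in 11 of 13 cases, mitotic kinases and checkpoint genes in 11 of 12, and kinetochore and chromosome genes in 28 of 34. CENPF, KIF23, NEK2, PTTG1 and PRC1 were among the 8 that did not pass, with log2 changes between -0.11 and 0.07.

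Genes of homologous recombination and the Fanconi pathway, which repair broken and crosslinked DNA and are made mainly in S phase, had 20 of 35 members lower and 3 higher, with a median of -0.39. FANCD2 fell from 34.8 and 32.5 CPM to 17.7 and 16.1 CPM, and its partner FANCI from 58.4 and 58.5 CPM to 31.4 and 30.2 CPM. ATR, the kinase of the replication checkpoint, fell from 97.6 and 100.9 CPM to 51.8 and 50.9 CPM. Of 10 E2F and DP factors 5 were lower and 1, TFDP2, was higher.

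**Figure D2:**
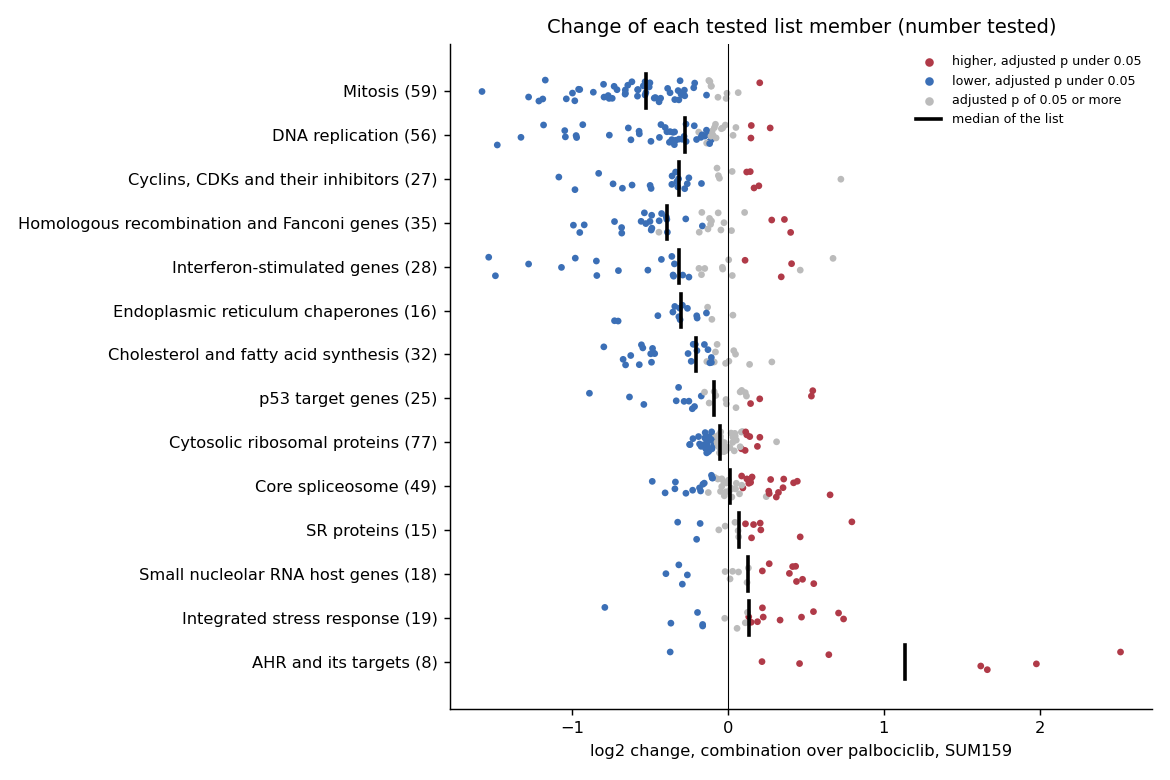
Log2 change of the combination over palbociclib (horizontal axis) for each tested member of 14 lists. Red and blue points passed an adjusted p of 0.05 and bars are medians, from -0.53 for mitosis to 1.13 for the aryl hydrocarbon receptor (AHR) and its targets.

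The promoters of 8 of the lower genes named above were searched for letters of the cell cycle, and the 4 that hold them are shown. CDC45, CCNA2, CENPI and RRM2 had 0 matches in the same window. Only the exact letters given below were searched, so other forms of these elements would be missed. The windows of CENPI, RRM2 and CDC45 begin inside the span of their gene in GENCODE 44, for CENPI at chrX:101100808 against 101098188. Sequence around starts further upstream was not searched. The windows hold 250 bases before and 50 after the RefSeq start site (GRCh38.p14), with the gene's own strand printed 5′ to 3′. Capitals mark the CHR letters TTTGAA or the E2F letters TTTGGCGC, TTTCCCGC, TTTGCCGC or TTTCGCGC, on either strand. The windows are TOP2A at chr17:40417847-40418146 (minus strand), KIF20B at chr10:89701340-89701639 (plus strand), CDK1 at chr10:60778081-60778380 (plus strand) and POLE2 at chr14:49688165-49688464 (minus strand).
TOP2A: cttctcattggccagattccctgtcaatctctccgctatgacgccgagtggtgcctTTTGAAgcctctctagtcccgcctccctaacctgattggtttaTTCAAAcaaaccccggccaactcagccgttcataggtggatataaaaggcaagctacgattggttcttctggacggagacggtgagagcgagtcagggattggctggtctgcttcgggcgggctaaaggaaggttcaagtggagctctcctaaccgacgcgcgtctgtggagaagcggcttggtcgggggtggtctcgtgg
KIF20B: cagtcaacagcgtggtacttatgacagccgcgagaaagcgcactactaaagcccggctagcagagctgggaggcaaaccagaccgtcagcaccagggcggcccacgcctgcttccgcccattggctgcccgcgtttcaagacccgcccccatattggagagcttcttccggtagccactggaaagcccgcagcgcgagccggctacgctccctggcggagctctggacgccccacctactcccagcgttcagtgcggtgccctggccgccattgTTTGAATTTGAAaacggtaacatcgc
CDK1: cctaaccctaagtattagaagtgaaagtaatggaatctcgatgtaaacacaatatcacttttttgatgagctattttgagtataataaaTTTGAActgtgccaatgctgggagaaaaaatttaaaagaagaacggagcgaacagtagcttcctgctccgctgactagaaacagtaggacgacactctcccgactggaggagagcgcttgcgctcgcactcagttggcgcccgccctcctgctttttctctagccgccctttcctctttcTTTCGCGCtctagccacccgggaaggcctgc
POLE2: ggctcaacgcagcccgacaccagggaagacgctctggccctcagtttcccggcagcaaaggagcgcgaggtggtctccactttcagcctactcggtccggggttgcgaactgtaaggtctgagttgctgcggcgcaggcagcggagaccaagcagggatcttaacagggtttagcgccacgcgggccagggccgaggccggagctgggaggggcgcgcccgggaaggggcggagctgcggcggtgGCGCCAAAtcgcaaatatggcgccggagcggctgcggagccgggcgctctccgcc
TOP2A has CHR letters starting 194 and 151 bases before its start site, the second on the opposite strand. KIF20B has them side by side, 24 and 30 bases after its start. CDK1 has CHR letters 161 bases before and E2F letters 19 bases after its start, and POLE2 has E2F letters 5 bases before it, on the opposite strand. CHR letters occurred in 36 of the 49 mitosis promoters in the table (73.5%), against 15.4% of all 27305 promoters. E2F letters occurred in 19 of 49 replication promoters (38.8%), against 3.33% of all. CHR letters were in 3 of the 49 replication promoters (6.12%) and E2F letters in 2 of the 49 mitosis promoters (4.08%). CHR and E2F letters do not overlap each other. A match is a description of letters and not of binding.

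The largest increases included genes of the AHR, a receptor for aromatic compounds that switches on enzymes to oxidise them. All 8 tested genes of the list passed, 7 higher and 1 lower, with a median log2 change of 1.13. CYP1A1, the best known target (chr15:74719542-74725536), was at 3.79 and 4.33 CPM with palbociclib and at 22.9 and 24.0 CPM with the combination. The level was 5.74 times as high, with a log2 change of 2.52 ± 0.091 (adjusted p = 4.5e-12). CYP1B1, another target and a cytochrome P450, rose from 4.95 and 5.28 CPM to 14.9 and 16.8 CPM. AHRR, which represses the receptor and is itself a target, rose from 11.96 and 12.6 CPM to 38.6 and 39.7 CPM. AHR itself had a log2 change of 0.22, and its partner ARNT was the lower member, at -0.37. CYP1B1 and AHRR share exons on their strand with other annotated genes, and reads in those exons may be lost or shared.

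The AHRR promoter (chr5:321464-321763 (plus strand), GRCh38.p14) is shown because it holds the AHR core letters TNGCGTG, in capitals, starting 32 bases before the start site. The windows of CYP1A1 and TIPARP, another target, had 0 matches. Sequence beyond 250 bases before or 50 after the start site was not searched, so matches further away would be missed.
AHRR: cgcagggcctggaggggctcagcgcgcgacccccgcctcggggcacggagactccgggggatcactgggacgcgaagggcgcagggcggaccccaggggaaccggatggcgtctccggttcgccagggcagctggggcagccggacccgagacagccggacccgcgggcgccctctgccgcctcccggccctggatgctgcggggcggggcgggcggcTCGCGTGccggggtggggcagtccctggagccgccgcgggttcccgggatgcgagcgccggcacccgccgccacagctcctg
These letters were in 2 of the 7 promoters of the list in the table and in 5.51% of all promoters.

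Other genes with the largest increases belong to no single list. VIPR1, a receptor for vasoactive intestinal peptide (chr3:42489299-42537573), was at 8.29 and 8.40 CPM and rose to 39.5 and 37.3 CPM, a log2 change of 2.204 ± 0.071. RRAGB, a Rag GTPase that reports amino acids to mTORC1, rose from 11.3 and 11.9 CPM to 36.7 and 40.0 CPM. GDA, guanine deaminase (chr9:72114595-72257193), rose from 161.9 and 153.6 CPM to 422.0 and 437.9 CPM, 2.73 times its level with palbociclib. These 3 genes were picked for large changes and had small spread within groups. Their groups did not overlap, as for 36.8% of all genes tested in that direction. NKD2, an inhibitor of Wnt signalling, was low with palbociclib, at 3.08 and 3.89 CPM, and rose to 10.5 and 9.81 CPM. SEC31B, a coat protein of vesicles leaving the endoplasmic reticulum, varied more between duplicates, from 18.1 and 21.9 CPM to 69.1 and 56.4 CPM. It shares exonic positions with another gene annotated on its strand, so its counts are less certain.

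The largest decreases were led by CYP4V2, a fatty acid hydroxylase (chr4:186191567-186213463). It went from 26.7 and 27.2 CPM to 5.24 and 4.64 CPM, a log2 change of -2.44 ± 0.091 (adjusted p = 5.5e-12). UTP6, part of the complex that processes small subunit ribosomal RNA (chr17:31860904-31901708), fell from 111.5 and 106.6 CPM to 37.3 and 33.5 CPM, a log2 change of -1.62 ± 0.051. PEX3, which brings membrane proteins to peroxisomes, fell from 32.5 and 31.2 CPM to 9.45 and 10.6 CPM. The groups did not overlap for these genes, which were picked for large changes, as for 35.7% of all genes tested in that direction. DNHD1, which has a dynein heavy chain domain, fell from 16.0 and 16.3 CPM to 4.52 and 3.84 CPM. SRR, serine racemase, fell from 10.0 and 9.20 CPM to 3.03 and 2.89 CPM. RNFT1, a membrane protein with a RING finger, fell from 17.4 and 15.4 CPM to 6.21 and 4.95 CPM. CYP4V2, PEX3, DNHD1, SRR and RNFT1 share exonic positions with another gene annotated on their strand.

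Interferon-stimulated genes, which cells use against viruses, were lower in 16 of 28 cases and higher in 3 (XAF1, IFITM1 and IFITM3), with a median of -0.32. IFI44L was at 45.2 and 47.5 CPM and fell to 16.3 and 15.7 CPM, a log2 change of -1.53 ± 0.064. IFI44, its neighbour on chromosome 1, fell from 65.8 and 69.1 CPM to 24.98 and 22.9 CPM. IFIT1, which binds foreign RNA, fell from 112.9 and 100.5 CPM to 50.2 and 51.5 CPM. The summed level of the 28 genes was 1332 and 1324 CPM in untreated cells, 1536 and 1542 CPM with palbociclib and 1203 and 1201 CPM with the combination. With indisulam alone it was 1053 and 1055 CPM, so the groups given indisulam lay below the groups without it.

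Genes of secretion and lipid synthesis were mostly lower. Of 16 chaperones and folding genes of the endoplasmic reticulum 13 were lower and 0 higher, by edgeR or DESeq2 or at an unadjusted p under 0.05 in edgeR, with a median of -0.30. HYOU1, a chaperone of that compartment, fell from 340.8 and 340.4 CPM to 209.7 and 208.3 CPM, and EDEM1, which marks misfolded proteins for removal, from 163.4 and 155.8 CPM to 96.8 and 95.8 CPM. Of 32 genes of cholesterol and fatty acid synthesis 22 were lower and 0 higher, again by both tools and without adjustment, with a median of -0.20. With total-count scaling 17 were lower and 1 higher, and 1 was higher without palbociclib replicate 2. ACLY, which makes cytosolic acetyl-CoA, fell from 930.3 and 914.0 CPM to 576.0 and 594.0 CPM, and ACACA, which turns it into malonyl-CoA, from 152.4 and 175.7 CPM to 98.3 and 90.7 CPM. Of 19 NRF2 targets 5 were higher and 4 lower (7 lower without palbociclib replicate 2), and SLC7A11, the cystine importer, fell from 97.3 and 98.7 CPM to 40.9 and 39.0 CPM. Of 19 genes of the integrated stress response 10 were higher and 5 lower (6 and 4 with DESeq2, and 3 lower without palbociclib replicate 1 or combination replicate 1). SLC7A5, an importer of large neutral amino acids, rose from 275.0 and 283.7 CPM to 451.7 and 462.7 CPM.

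Genes of the splicing machinery moved in both directions around a median near that of all genes. Of 49 core spliceosome genes 17 were higher and 13 lower (median 0.016), of 15 SR proteins 7 were higher and 3 lower (0.07), and of 24 hnRNP and PTB proteins 11 were higher and 6 lower (0.02). The lower counts became 8 of the core genes and 3 of the hnRNP and PTB genes without combination replicate 1. Of 9 splicing factor kinases 3 were higher and 3 lower. PTBP2, the neuronal polypyrimidine tract protein, rose from 17.0 and 16.9 CPM to 34.5 and 38.3 CPM, a log2 change of 1.10 ± 0.069. PTBP1, its widely made paralog and its repressor, rose from 282.8 and 292.2 CPM to 414.2 and 423.7 CPM. SRRM1, a splicing coactivator, rose from 139.1 and 137.6 CPM to 242.4 and 237.8 CPM. Each of these genes had groups that did not overlap, as for 36.8% of all genes tested in that direction. CDC5L, a protein of the active spliceosome, rose from 75.9 and 76.7 CPM to 116.9 and 123.8 CPM. KHDRBS1, the RNA-binding protein Sam68, fell from 266.3 and 241.4 CPM to 172.9 and 176.4 CPM. Of 18 factors of nonsense-mediated decay 8 were higher and 4 lower (2 lower without combination replicate 1), and UPF1, its helicase, went from 97.6 and 103.9 CPM to 127.1 and 126.6 CPM. Of 18 host genes of small nucleolar RNAs, whose spliced RNAs are mostly degraded by that pathway, 8 were higher and 4 lower, with a median of 0.13.

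Targets of p53 and genes linked to senescence moved in both directions. Of 25 p53 targets 10 were lower and 4 higher, with a median of -0.088, and 2 were higher without palbociclib replicate 2 or combination replicate 2. CDKN1A, the p21 inhibitor of CDKs and a p53 target, was at 33.9 and 34.8 CPM and fell to 27.2 and 28.1 CPM, a log2 change of -0.32 ± 0.055 (adjusted p = 0.00014). POLH, a DNA polymerase that copies past damage, fell from 26.9 and 27.6 CPM to 17.3 and 18.0 CPM, and CCNG1 rose from 112.7 and 103.2 CPM to 152.3 and 160.3 CPM. In 5 senescence lists from the study's supplement, the counts of higher and lower members were 5 and 14 of 33 (Casella), 7 and 12 of 35 (Purcell), 4 and 13 of 29 (Hernandez), 4 and 8 of 22 (Hernandez SASP) and 20 and 16 of 65 (Fridman). Their medians lay between -0.10 and 0.0098. The study used its lists in an enrichment analysis of ranked genes, in SUM159 cells treated for longer and at lower doses. It reported enrichment of senescence signatures with the combination over single drugs or no treatment. Counts of members at 16 h are a different measure and do not test that result. In the longer treatments the study also reported more p21 protein in both lines and more cells stained for senescence-associated β-galactosidase. CDKN1A RNA at 16 h is likewise a different measure and does not test those results. Without combination replicate 1 the Fridman list had 13 higher and the Hernandez list 2 higher and 8 lower, and that list also had 2 higher without combination replicate 2. MMP1, a secreted collagenase, rose from 14.7 and 13.1 CPM to 34.6 and 33.3 CPM, and the chemokine CCL5 fell from 31.1 and 29.6 CPM to 15.6 and 15.6 CPM. IL6 was at 6.67 and 6.31 CPM and fell to 3.21 and 3.99 CPM.

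In the BCL2 family, 5 of 13 were lower and 3 higher, with 3 lower without combination replicate 1 and 1 higher without it or palbociclib replicate 1. BMF, which promotes cell death, rose from 6.6 and 7.22 CPM to 19.2 and 17.6 CPM. MYC rose from 344.0 and 347.5 CPM to 398.3 and 405.1 CPM, a log2 change of 0.22 ± 0.033. In its network 5 of 10 genes were higher and 1 lower, among targets of ERK 4 of 15 were higher and 3 lower, and among targets of SRF and YAP 6 of 17 were higher and 4 lower (7 lower without palbociclib replicate 1). The lower member of the MYC network became 2 without palbociclib replicate 1. Of 16 cytosolic chaperones 4 were higher and 5 lower (2 lower without palbociclib replicate 1 and 3 without combination replicate 1), and of 21 other splicing regulators 6 each were higher and lower. Of 77 cytosolic ribosomal protein genes 26 were lower and 7 higher, with a median of -0.048. With total-count scaling the counts were 15 lower and 14 higher, and without combination replicate 1 they were 11 lower and 4 higher. The higher count was 2 without palbociclib replicate 1 and 3 without combination replicate 2. Of the 13 protein-coding genes of mitochondrial DNA 1, MT-CYB, was higher and 0 lower (also 0 lower at an unadjusted p under 0.05 in edgeR and 0 in DESeq2), with a median of 0.27. Reads from mitochondrial DNA made up 4.78% and 5.57% of gene counts with palbociclib and 6.85% and 6.29% with the combination, and the call of MT-CYB was lost with DESeq2 (adjusted p = 0.342) and without palbociclib replicate 1, combination replicate 1 or combination replicate 2. With the 4 libraries fitted alone 12 of the 13 passed.

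Genes with more exons were more often lower. Among 283 protein-coding genes of 1 exon, 34.6% were higher and 7.07% lower, with a median log2 change of 0.21. Among 4144 genes with 5 to 9 exons 23.6% were higher and 26.0% lower. Among 2072 genes with 20 or more exons 22.5% were higher and 34.8% lower, with a median of -0.047. Over all 13063 protein-coding genes the shares were 24.4% and 27.6%. The order held among genes whose mean level reached 5 CPM, at 39.1% higher and 9.94% lower for 1 exon and 24.2% and 39.1% for 20 or more. With total-count scaling the shares for 20 or more exons were 26.8% higher and 30.3% lower. Genes with more exons also had a higher median level, 45.2 CPM against 7.80 CPM for genes of 1 exon, and its part in these shares was not tested beyond that filter. By length of the gene on the chromosome the share lower was 22.2% under 10 kb, 26.7% at 10 to 30 kb, 31.5% at 30 to 100 kb and 27.5% at 100 kb or more, with no steady order.

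**Figure D3:**
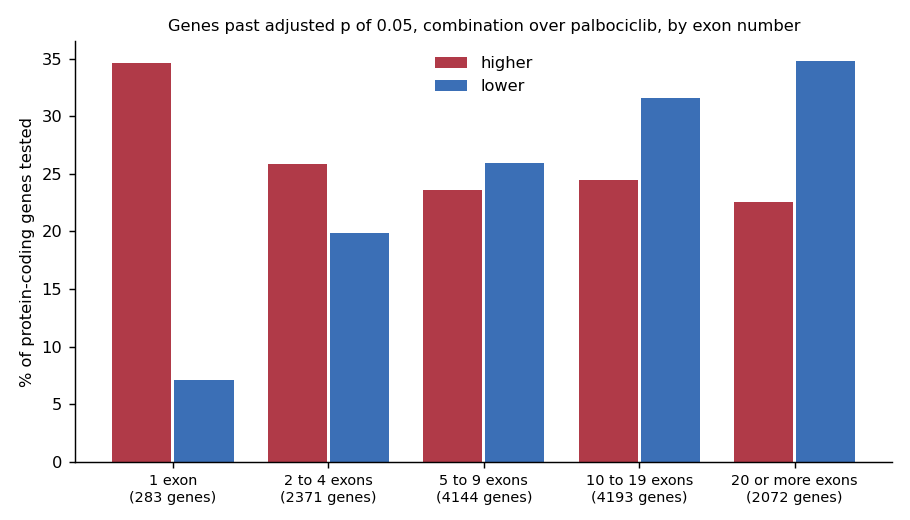
Share of tested protein-coding genes (vertical axis, percent) that were higher or lower with the combination than with palbociclib, by exon number. The share lower goes from 7.07% with 1 exon to 34.8% with 20 or more.

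The same drug was also given without palbociclib, and those 4 libraries share none with the comparison above. Indisulam alone changed 7538 genes against untreated cells (46.9%). Of the genes that were higher when indisulam was added to palbociclib, 2430 (64.5%) were higher with indisulam alone, and of those that were lower 3024 (75.6%) were lower. Across the 10737 genes whose mean level reached 5 CPM, the log2 changes with and without palbociclib had a Pearson's r of 0.852, given as a description since genes are not independent. Tested as a difference of changes, 704 genes (4.38%) responded differently, 357 with a more positive change in palbociclib (2.22%) and 347 with a more negative one (2.16%). That count depended on single libraries. It was 463 and 267 without combination replicates 1 and 2, 409 and 278 without untreated replicates 1 and 2, and 326 and 207 without indisulam replicates 1 and 2. In 22 genes the change was downward with palbociclib and upward without it, and in 42 the reverse. The difference passed in all 64, which is close to certain where both changes pass with opposite signs.

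The mitosis list held the most genes with a more negative change when palbociclib was present. There were 28 such genes among its 59, beside 2.16% of all genes tested, and 0 with a more positive change by edgeR or DESeq2 (1 at an unadjusted p under 0.05 in edgeR). Leaving out any 1 of the 8 SUM159 libraries gave between 22 and 30 of them. The median log2 change of the list was -0.53 with palbociclib and -0.23 without. For DNA replication 10 of 56 genes were more negative and 2 more positive (0 without combination replicate 2 or either indisulam library), with medians of -0.27 and -0.22. The 10 became 4 to 6 when any 1 combination, untreated or indisulam library was left out. Among cyclins and CDKs 4 of 27 were more negative, among recombination and Fanconi genes 6 of 35 (3 without combination replicate 2 or untreated replicate 2), and among splicing factor kinases 4 of 9 (2 without combination replicate 2 or untreated replicate 2, and 1 without indisulam replicate 2). The summed level of the 59 mitosis genes was 7711 and 7713 CPM with indisulam alone. The largest median difference of the 38 lists, -0.67, was that of the 13 mitochondrial DNA genes, of which 1 passed as more negative. Their median log2 change was 0.27 with palbociclib and 0.93 without. Mitochondrial reads made up 3.44% and 1.83% of gene counts in the untreated duplicates, and 5.33% and 5.44% with indisulam alone. The part of the spread between untreated duplicates was not tested.

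Of the 30 genes named for the cell cycle and drug target or for the largest changes, 6 differed between the backgrounds. The 8 largest increases and 8 largest decreases among them were picked by their change with palbociclib. That choice favours a larger change with palbociclib than without, and its part was not tested. CCNE2 fell by 1.09 on the log2 scale with palbociclib and by 0.46 without (difference -0.62 ± 0.13, adjusted p = 0.01), which did not pass without combination replicate 1 (adjusted p = 0.0704). CENPI fell by 1.58 and by 1.06 (difference -0.52 ± 0.087, adjusted p = 0.003), and this passed with each library left out. LMNB1, UTP6, IFI44L and SEC31B also differed, at adjusted p of 0.0165, 0.0146, 0.0304 and 0.0301, but each lost its call without combination replicate 2 and without indisulam replicate 2, among others. RBM39 (difference -0.036, adjusted p = 0.777) and CYP1A1 (0.08, adjusted p = 0.88) did not pass. CCNH had a log2 change of -1.40 without palbociclib, and its difference of 0.25 did not pass (adjusted p = 0.121).

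**Figure D4:**
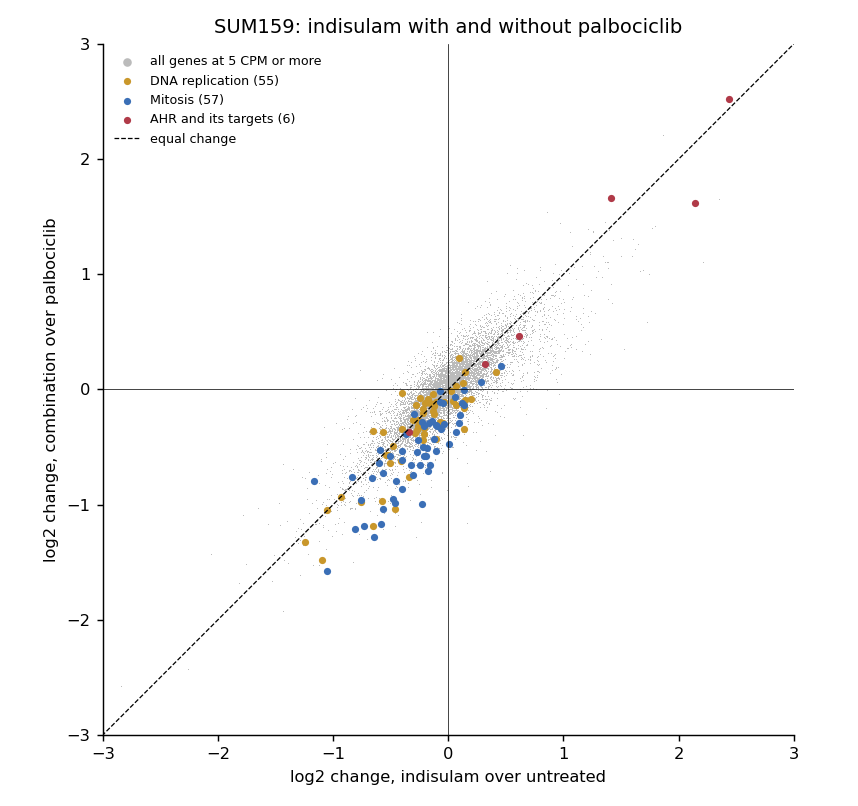
Log2 change of indisulam over untreated (horizontal axis) against the combination over palbociclib (vertical axis) for 10737 genes in SUM159. Coloured points are list members at 5 CPM or more, and most mitosis genes (blue) lie below the dashed line of equal change.

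A549 cells received the same doses for the same time, and the change from palbociclib to the combination was compared between lines. Of 14122 genes tested in both lines, 1903 were higher in both and 2430 lower in both. In a fit of all 16 libraries 3681 of 17764 genes (20.7%) differed, 1760 with a more positive change in SUM159 (9.91%) and 1921 with a more negative one (10.8%). With total-count scaling the split was 2105 and 1316. The lines differ in tissue of origin and were grown in different media, and these cannot be told apart from the line itself. Between lines 161 genes were higher in SUM159 and lower in A549, and 170 the reverse.

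CDKN1A was among those that moved in opposite directions, with a log2 change of -0.32 in SUM159 and 0.71 in A549, where it went from 29.2 and 32.8 CPM to 52.3 and 49.4 CPM. The difference was -1.05 ± 0.092 (adjusted p = 2.2e-08). The p53 target list had a median of -0.088 in SUM159 and 0.33 in A549, and POLH and DDB2 had log2 changes of -0.63 and -0.54 in SUM159 and 0.31 and 0.21 in A549. MYC also moved in opposite directions, at 0.22 in SUM159 and -0.22 in A549 (adjusted p of the difference 1.6e-05). LMNB1 fell further in A549, by 1.25 against 0.47 on the log2 scale. VIPR1 had a log2 change of 2.204 in SUM159 and 0.71 in A549, and NKD2 of 1.53 and -0.045. CYP1B1, at 130.3 and 125.5 CPM in A549 with palbociclib, rose there by 0.40 on the log2 scale, against 1.62 in SUM159. VIPR1, NKD2 and CYP1B1 were picked by the size of their change in SUM159, which favours a larger change in that line. For CYP1A1 no difference passed (adjusted p = 0.882), at levels under 1 CPM in A549. RBM39 and CCNH did not pass either, with changes of 1.17 and -1.24 in A549 (adjusted p of the difference 0.0624 and 0.802). The median of the mitosis list was -0.43 in A549 and that of the AHR list 0.47.

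**Figure D5:**
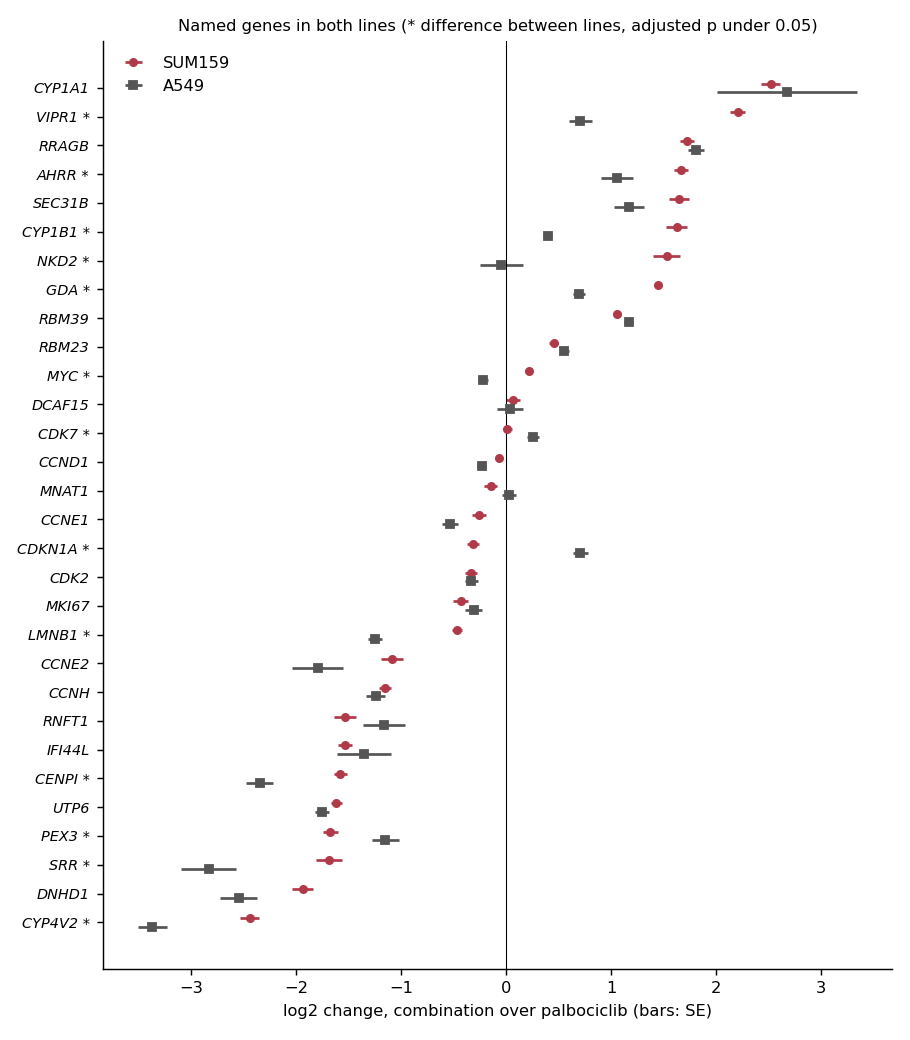
Log2 change of the combination over palbociclib (horizontal axis, bars are SE) for the 30 genes in SUM159 (red circles) and A549 (grey squares). An asterisk marks the 13 genes whose difference between lines passed an adjusted p of 0.05, among them CDKN1A and MYC with opposite signs.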

How the data were processed

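Each library has its own deposited file, in which the authors gave raw read counts for Ensembl genes, without normalization or pooling. Per the study's methods, strand-specific poly(A) libraries were read as pairs and trimmed reads were aligned to GRCh38. The submitters' processing notes name HISAT2 2.2.1 and HTSeq. The strand setting and annotation of the counting are not given in the sources used here, so counts of overlapping genes are uncertain. Reads in no feature, ambiguous reads and reads without a unique alignment, 15.05% to 16.2% of each of the 4 libraries, stayed out of library sizes and tests.

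Samples were grouped from their labels. The 8 SUM159 libraries were fitted together with edgeR 4.0.16 in R 4.3.3, with 1 coefficient per group. Low genes were removed with filterByExpr, libraries were scaled by TMM, and changes were tested with glmQLFit and glmQLFTest and adjusted by Benjamini-Hochberg over 16080 genes. The threshold was 0.05. Values in CPM used TMM-scaled library sizes, and SE were taken from the log2 change and its F statistic. Responses with and without palbociclib were compared by an interaction in this fit, and lines by an interaction over 16 libraries, whose scaling differs slightly from that of each line. Simulated counts for the combination against palbociclib held 15714 genes. Only 100 of them were given a true log2 change of size 1, and another 100 a change of size 0.5. The test called 83 and 64 of these, all with the right sign, and 3.29% of its calls were false. In the real comparison 48.3% of genes were called, far more than the simulation shifted. The false share among the real calls was therefore not tested.

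Members and gene lists were chosen with earlier results of these data known. The rule for named genes took 14 fixed genes (RBM39, RBM23, DCAF15, CCNH, CDK7, MNAT1, CDK2, CCNE1, CCNE2, CCND1, CDKN1A, LMNB1, MKI67 and MYC), the 8 largest increases and 8 largest decreases among protein-coding genes past the threshold with a mean level of 5 CPM or more and 1 direction across the R1 and the R2 pair, and up to 3 genes per list with the largest change. Other genes, such as exceptions within a list, were named after their values were seen. Symbols, coordinates and exon numbers came from GENCODE 44 (58207 of 58676 identifiers matched), promoters from RefSeq on GRCh38.p14. Exons were counted in the transcript of each gene that is marked as Ensembl canonical. Of the 59 mitosis and 56 replication genes, 49 each had a promoter in that table. Alternatives were median-ratio and total-count scaling, DESeq2 1.42.0, other filters, the 4 libraries alone, a replicate block, a minimum change and leaving out each library.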

Additional observations from a re-analysis of the deposited data

Results flagged for a closer look

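Results are given here where the response to indisulam in palbociclib differed between groups by a test of the difference, among the 30 genes named for the cell cycle and drug target or for the largest changes. The 8 largest increases and 8 largest decreases among these genes were picked by this same change in SUM159. That choice favours a larger change there than in the group compared with it. With 2 libraries per group no library was tested for standing apart from its group.

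Between SUM159 and A549 the difference passed for 13 genes, given as SUM159 minus A549 on the log2 scale. It was positive for NKD2 (1.54), VIPR1 (1.47), CYP1B1 (1.20), SRR (1.11), CYP4V2 (0.89), LMNB1 (0.75), CENPI (0.74), GDA (0.73), AHRR (0.58) and MYC (0.41). It was negative for CDKN1A (-1.05), PEX3 (-0.55) and CDK7 (-0.27). CYP4V2, SRR, LMNB1 and CENPI fell in both lines and less in SUM159. The difference of PEX3 did not pass without combination replicate 1 (adjusted p = 0.0633).

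Between SUM159 with and without palbociclib the difference passed for 6 genes, each with a more negative change in palbociclib. It was -0.70 for SEC31B, -0.62 for CCNE2, -0.52 for CENPI, -0.41 for IFI44L, -0.33 for UTP6 and -0.27 for LMNB1. SEC31B rose in both backgrounds, by 1.65 with palbociclib and 2.35 without, and the other 5 fell in both.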

How the results depend on the processing

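Counts of genes changed by indisulam in palbociclib at any size of change ran from 5607 (DESeq2) to 7903 (total-count scaling), and from 5976 to 7129 with 1 library left out (2792 to 3277 higher, 3184 to 3852 lower). DESeq2 called 2371 genes higher. A minimum log2 change of 1 left 825 (470 higher, 355 lower), and 29 of the differences with and without palbociclib (5 more positive, 24 more negative) and 417 of those between lines (319 and 98). DESeq2 called 439 differences with and without palbociclib, 195 of them more negative, and 594 were more negative without a filter. With 1 library left out these differences ran from 207 to 941, of which 83 to 531 were more positive and 124 to 428 more negative. Those between lines ran from 2491 to 3563. The untreated and indisulam libraries were left out, and the crossed block was added, after the data were seen.

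Same-numbered libraries did not deviate together (correlation -0.362 between combination and palbociclib, -0.0837 between indisulam and untreated). With 2 libraries a group, a negative value means that opposite-numbered libraries deviated together, more so for combination and palbociclib. The cause was not tested. With a replicate block 7443 genes were called, 470 differed with and without palbociclib (234 more positive) and 3545 between lines. With the numbers crossed, 7747, 736 and 3708 were called.

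Of 120 named genes, all kept the direction of change under every alternative except CDK7 (-0.015 without a filter, -0.038 to 0.040 with 1 library left out) and DCAF15 (-0.025 to 0.15 with 1 library left out), neither of which passed in any of them. BOK lost its call with DESeq2 (adjusted p = 0.119) and without combination replicate 1 (0.0838). MT-CYB also lost it with a minimum of 10 counts (0.0529). MNAT1 passed with median-ratio scaling (0.0453) and without palbociclib replicate 2 (0.0386). The differences of SEC31B and IFI44L with and without palbociclib were lost with DESeq2 (adjusted p = 0.0996 and 0.0917), and that of SEC31B with the replicate block. Of 2128 list counts under alternatives 338 moved by over 1.5 times. The causes of these shifts were not tested. Depth was not varied, and 2 technical duplicates per group limit the tests to the spread between these libraries.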
